A study of Mus musculus with 26 samples.

Results

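Beta-catenin, the factors that it partners on DNA, and the genes through which Wnt signalling restrains itself were followed in sorted mesenchyme of the mouse reproductive tract. The 10 genes were Ctnnb1, Lef1, Tcf7, Tcf7l1, Tcf7l2, Axin1, Axin2, Nkd1, Nkd2 and Apcdd1. They were chosen by name, with earlier results of these data known. All 10 were found among the 41442 gene rows of each RNA-seq table. Cells were sorted from mouse lines in which a Cre recombinase switches on the red reporter Rosa-Tomato. Gli1-CreER is a tamoxifen-dependent Cre under Gli1, a target gene of hedgehog signalling, so it marks cells that expressed Gli1 when the drug was given. Amhr2-Cre is driven by Amhr2, the receptor gene of anti-Müllerian hormone, and marks cells with a history of its expression. Per the labels' protocols, which name dams of either line, 1 mg tamoxifen was injected intraperitoneally at E12.5 and E13.5 (days of embryonic development). Amhr2-Cre does not itself need the drug, and the labels do not list the treatment sample by sample. The fetal table held Gli1+ cells of the mesonephros, the tissue that carries the Wolffian and Müllerian ducts, in 4 groups of 3 libraries: females and males at E14.5 and at E16.5. The uterine table held Amhr2+ and Gli1+ cells of the female neonatal uterus, labelled E19.5, in 2 groups of 3 libraries. A list of accessible chromatin regions from ATAC-seq joined 8 samples, 2 for each fetal group. The labels do not say whether libraries came from separate animals or litters, or how many animals were pooled, so p-values measure only the spread between these libraries, which may be technical.

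In canonical Wnt signalling a destruction complex built on the scaffolds Axin and Apc marks beta-catenin for degradation. Wnt ligands, bound by Frizzled and Lrp receptors, disable that complex, and beta-catenin then enters the nucleus. There it binds TCF and LEF proteins, which otherwise sit on target genes with Groucho/Tle corepressors. Several targets feed back on the pathway, so their RNA is widely used as a readout of its activity: Axin2 replenishes the scaffold, Nkd1 and Nkd2 bind Dishevelled, and Apcdd1 acts at the membrane. In the developing female tract, Wnt signals of the mesenchyme are needed for formation and patterning of the uterus.

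Accessible chromatin near the genes is shown first, because it gives the sequence on which TCF factors could act. The unified list held 71040 regions (peaks) on mm10, with no height and no sample column, so it could not be compared between sexes or ages. A peak covered the annotated start of 8 of the 10 genes, against 65.8% of the 17858 genes tested in the fetal libraries. Lef1 and Tcf7 were the exceptions at the start base taken for each gene, and other starts of a gene were not counted. A peak lay within 1000 bp of the start of Tcf7, but not of Lef1, whose nearest upstream peak lay more than 4 kb before its start. A nearer peak, inside Lef1, was centred 1829 bp after that start. This nearer peak partly overlapped the upstream bases of a later RefSeq start of Lef1. The list held 67 peaks in or within 10 kb of the genes, 59 of them inside a gene body. They were most numerous at the long genes Tcf7l2 (15 peaks), Tcf7l1 (13) and Nkd1 (11).

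The 300 bases around each peak centre were searched on both strands for 4 words of the TCF/LEF binding motif: CTTTGAA, its variant CTTTGAT, the form CTTTGTA and, as the last, CTTTGTT. A word was found in 16 of the 67 windows (23.9%), against 21.0% of the 70999 windows of all peaks that could be read, so the share near these genes was close to the background. An upstream peak each of Lef1 and Tcf7 and a peak inside Nkd2 are printed because much of what follows turns on these 3 genes. All 3 printed windows hold a word, so they do not stand for the windows of these genes as a whole. Windows with a word numbered 2 of 6 at Lef1, 2 of 4 at Tcf7 and 2 of 5 at Nkd2. The peak over the Nkd2 start had no word in its window. The Lef1 window, chr3:131105918-131106217 on the plus strand, is centred at -4403 bp from the start and held 2 words, where 2.95% of all windows held 2 or more. Windows inside Lef1 and Tcf7l2 also held 2 words. The Tcf7 window is chr11:52283254-52283553 on the minus strand, centred at -390 bp. The Nkd2 window is chr13:73835871-73836170 on the minus strand, inside the gene centred at 11610 bp. None of the 3 printed windows touches an annotated exon. The 250 bases upstream of Axin2, chr11:108920099-108920348 on the plus strand, are given as the proximal promoter of the standard readout gene. They overlap a peak of 768 bp that covers the start and hold no word, whereas 14.8% of the 32851 such upstream stretches did. The 300 bases around the centre of that same peak, which touch an annotated exon, held 1 word. The promoter comes from RefSeq and the windows from the genome of the same release, GRCm38.p6. Capitals mark the words.
Lef1 upstream peak: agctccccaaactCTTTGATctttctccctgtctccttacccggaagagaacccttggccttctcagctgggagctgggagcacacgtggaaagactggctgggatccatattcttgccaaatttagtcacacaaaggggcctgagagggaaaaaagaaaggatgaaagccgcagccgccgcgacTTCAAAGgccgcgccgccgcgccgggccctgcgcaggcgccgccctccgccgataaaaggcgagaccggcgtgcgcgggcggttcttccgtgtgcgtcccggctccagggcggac
Tcf7 upstream peak: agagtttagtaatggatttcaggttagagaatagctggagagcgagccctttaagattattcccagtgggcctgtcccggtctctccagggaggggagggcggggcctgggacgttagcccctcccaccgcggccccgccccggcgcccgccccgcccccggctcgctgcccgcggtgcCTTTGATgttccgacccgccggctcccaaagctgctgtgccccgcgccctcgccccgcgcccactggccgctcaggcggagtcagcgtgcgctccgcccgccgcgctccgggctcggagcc
Nkd2 intragenic peak: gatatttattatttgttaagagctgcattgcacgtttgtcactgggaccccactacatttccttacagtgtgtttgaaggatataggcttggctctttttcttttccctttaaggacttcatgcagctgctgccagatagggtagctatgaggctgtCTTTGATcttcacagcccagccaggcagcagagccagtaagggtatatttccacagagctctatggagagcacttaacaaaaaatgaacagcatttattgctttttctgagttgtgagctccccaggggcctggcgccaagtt
Axin2 upstream 250 bases: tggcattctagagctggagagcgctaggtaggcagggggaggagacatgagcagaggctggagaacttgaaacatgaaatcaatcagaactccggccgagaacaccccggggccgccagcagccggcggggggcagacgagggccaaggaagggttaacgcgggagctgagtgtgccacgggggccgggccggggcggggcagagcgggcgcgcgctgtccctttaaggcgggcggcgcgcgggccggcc
A word marks letters only; binding was not measured. Promoter entries were matched for 8 of the 10 genes; Axin1 and Apcdd1 had none.

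**Figure D1:**
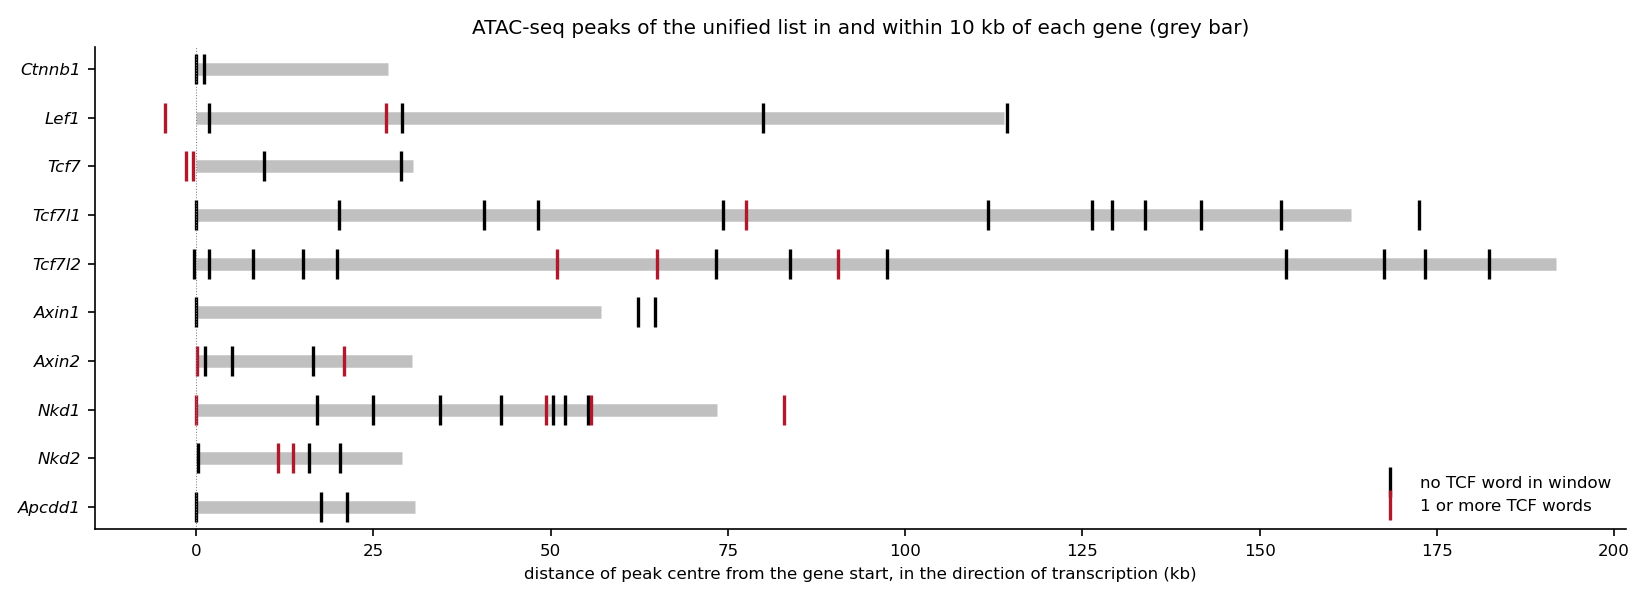
Each tick is an ATAC-seq peak placed by the distance of its centre from the gene start in kb, along the direction of transcription, and grey bars give the gene bodies; red ticks have 1 or more of the TCF words in the 300 bases around the centre. Both upstream peaks of Tcf7 and the upstream peak of Lef1 are red, and the Ctnnb1, Axin1 and Apcdd1 ticks are all black.

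Library totals were 23382983 to 64602477 counts in the fetal and 28709191 to 37541045 in the uterine table. Levels are given as CPM, the count of a gene scaled to a fixed library total after TMM normalization. Lef1 was the thinnest of the genes, with 238 to 861 counts per library, and Ctnnb1 the deepest, with 27888 to 64928. Mesenchymal genes were high in all 6 groups: all 6 markers on that list exceeded 1 CPM in each, with summed levels of 26030 to 64400 CPM. Since Lef1 and Tcf7 are also T-cell genes, T-cell markers were checked: Cd3d, Cd3e and Cd3g were each at or below 0.152 CPM in every library. Epithelial Epcam did not exceed 8.37 CPM and Cdh1 did not exceed 2.41 CPM. Epithelial keratin genes stood higher, with means of 24.7 CPM for Krt18 in E14.5 males and 22.6 CPM for Krt19 in uterine Amhr2+ cells. Endothelial genes summed to as much as 123 CPM, in E14.5 females, where Emcn averaged 64.1 CPM. Erythroid genes summed to 4.3 to 118 CPM among E14.5 female libraries. Foxl2, from a list of gonad somatic genes, averaged 19.8 CPM in E14.5 females and up to 99.4 CPM in uterine Amhr2+ cells, against 62.2 CPM in uterine Gli1+ cells. The germ cell gene Ddx4 averaged 5.87 CPM in uterine Gli1+ and 0.608 CPM in Amhr2+ cells. Xist and Ddx3y followed the sex labels at both ages. The genes induced by dissociation, Fos, Junb, Egr1 and Atf3, varied widely within groups, from a sum of 2560 to 13180 CPM among E16.5 males and from 721 to 9146 CPM among uterine Gli1+ libraries. In bulk samples of sorted cells, fewer cells of a type and less RNA per cell cannot be told apart.

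Levels were compared between genes per kilobase of merged exons. Ctnnb1 was highest in every group, with means from 180 CPM per kb in uterine Gli1+ cells to 232 in E14.5 females. Nkd1 came second in all 4 fetal groups, at 32.6 to 48.0 CPM per kb. In the uterine table Axin2 stood second, at 67.1 ± 2.06 CPM per kb (SD, n = 3) in Amhr2+ and 44.2 ± 4.87 in Gli1+ cells. In uterine Gli1+ cells the libraries of Axin2 overlapped those of Nkd1, the next in order, and those of Nkd1 overlapped Apcdd1. Tcf7l2 and Lef1 were the lowest pair in every group, at 4.2 to 5.4 and 0.811 to 2.59 CPM per kb, and their libraries did not overlap within any group. The place of Tcf7l2 depended on the exon length used, 8775 bases against 2625 for Tcf7. In CPM, Tcf7l2 averaged more than Tcf7 in both E16.5 groups and in uterine Gli1+ cells, and less in the other groups. In E16.5 females the means were 47.0 and 24.1 CPM. In E14.5 females the 6 genes Tcf7, Axin1, Apcdd1, Axin2, Tcf7l1 and Nkd2 formed a run of neighbours from 24.8 to 19.4 CPM per kb whose libraries overlapped. The tables were prepared with different kits and normalized separately, so a fetal and a uterine level were not compared.

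**Figure D2:**
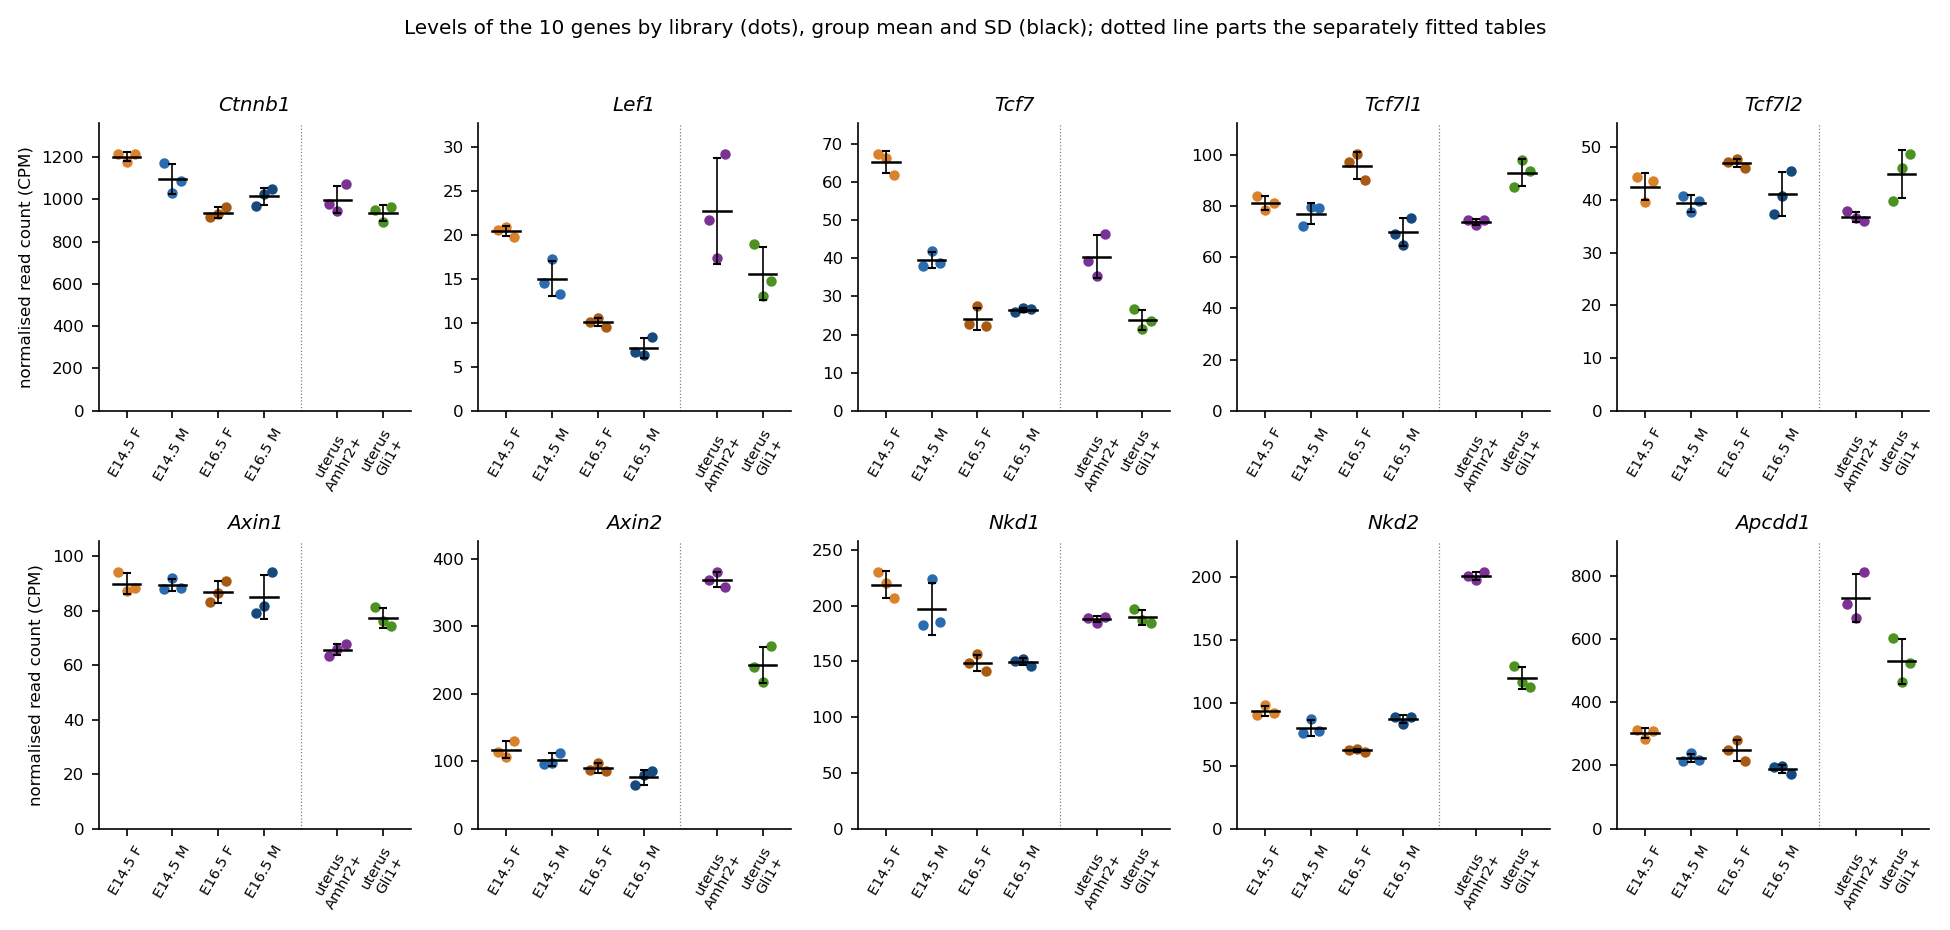
Normalised read counts in CPM are shown for each gene, with 1 dot for each library and the group mean and SD in black; F and M stand for female and male, and the dotted line parts the fetal from the uterine table. Lef1 and Tcf7 fall from E14.5 to E16.5 in both sexes, and in the uterus Axin2, Nkd2 and Apcdd1 lie higher in Amhr2+ than in Gli1+ libraries.

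Of the comparisons made, beta-catenin RNA passed the test only for its fall with age in females. Ctnnb1 lies at chr9:120933400-120960507 on the plus strand, and 15.1% of its exonic bases are shared with other genes, mainly Ulk4 on the opposite strand. The E14.5 female libraries stood at 1215, 1179 and 1215 CPM and the male ones at 1173, 1030 and 1088 CPM. At E16.5 the females stood at 918, 932 and 965 CPM and the males at 969, 1025 and 1049 CPM. All E16.5 female libraries were therefore below all E14.5 female ones, while the male ages overlapped. The log2 fall of 0.36 in females passed edgeR's quasi-likelihood test (SE 0.063, adjusted p = 0.000392). The male change, -0.11, did not (adjusted p = 0.22), and the difference between the sexes in that change missed the threshold as well (log2 difference -0.25, adjusted p = 0.102). The Ctnnb1 interaction was called by DESeq2's Wald test, at 0.0304, and without E14.5 male replicate 1, at 0.0267, and by no other of the 17 alternatives.

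The first question was how the genes differed between female and male mesenchyme at E14.5. Of the 10 genes 3 were higher in females and none was higher in males at an adjusted p under 0.05, against 6.28% of all genes called in either direction. Of all genes 2.59% were called higher in females and 3.69% in males. Tcf7, Apcdd1 and Lef1 were the 3, and the median log2 difference of the 10 was 0.17, against -0.014 over all genes. Libraries of the 2 sexes did not overlap for 5 of the 10 genes, against 27.2% of all genes.

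Tcf7, which encodes the factor TCF1, gave the largest of these sex differences. It lies at chr11:52252371-52283014 on the minus strand and shares no exonic base with another gene. At E14.5 the female libraries stood at 67.4, 66.3 and 62.0 CPM and the male libraries at 37.9, 42.0 and 38.8 CPM. Every female library was thus far above every male one. The log2 difference was 0.72 (SE 0.080, adjusted p = 4.98e-05), or 1.65-fold. It was called under all 18 alternatives, with adjusted p from 2.53e-14 to 0.000717.

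Lef1, the other factor of the family that mostly acts with beta-catenin as an activator, was lower throughout. It lies at chr3:131110471-131224356 on the plus strand, and 13.7% of its exonic bases overlap the antisense gene Gm43352. Its level at E14.5 was 20.5, 20.9 and 19.8 CPM in the female libraries, against 14.6, 17.3 and 13.3 CPM in the male ones. The female libraries were close together and all above the males. The log2 difference was 0.44 (SE 0.115, adjusted p = 0.0313), but the Lef1 call depended on single libraries. Without E14.5 female replicate 1, 2 or 3 the adjusted p was 0.106, 0.116 or 0.0792, and without male replicate 1 or 3 it was 0.0596 or 0.176 (range over 18 alternatives 0.00552 to 0.176).

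Apcdd1, a membrane inhibitor of Wnt signalling on chromosome 18 (62922327 to 62953195), stood at 312, 284 and 309 CPM in E14.5 females, with the males at 214, 238 and 216 CPM. The lowest female library stood above the highest male library. The log2 difference of 0.44 (SE 0.089, adjusted p = 0.00734) was called under all 18 alternatives. Nkd2 pointed the same way without passing, with a log2 difference of 0.22 (adjusted p = 0.0555), and 5 of its 18 alternatives called it (adjusted p from 0.0142 to 0.239). The Nkd2 calls came from DESeq2's Wald test (0.0142), its size factors (0.0429) and the replicate block (0.025), and from leaving out E14.5 male replicate 2 (0.0235) or E16.5 male replicate 1 (0.044). The remaining members, Ctnnb1, Tcf7l1, Tcf7l2, Axin1, Axin2 and Nkd1, had log2 differences from 0.01 to 0.19, none of which passed. Among them was Axin2, the standard readout, at 114, 106 and 131 CPM in females and 96.6, 97.5 and 113 CPM in males, which overlapped (log2 difference 0.19, SE 0.105, adjusted p = 0.358).

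At E16.5 the pattern was different. Of the 10 genes 3 were higher in females, Lef1, Tcf7l1 and Apcdd1, and Nkd2 was higher in males, while 27.3% of all genes were called in either direction, 13.2% higher in females and 14.1% in males. Libraries of the sexes did not overlap for 7 of the 10, against 38.3% of all genes. The Lef1 level was 10.1, 10.5 and 9.57 CPM in females against 6.66, 6.36 and 8.37 CPM in males. Its log2 difference of 0.49 (SE 0.119, adjusted p = 0.00608) was near that at E14.5. Apcdd1 stood at 247, 281 and 214 CPM in females against 194, 199 and 173 CPM in males, a log2 difference of 0.39 (SE 0.089, adjusted p = 0.00381). The female libraries were more spread than the male ones but all above them.

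Tcf7l1 encodes TCF3, the family member best known as a repressor of Wnt targets. It lies at chr6:72626378-72789254 on the minus strand and shares 4.56% of its exonic bases with the antisense gene Gm15401. Its E16.5 level was 97.2, 100.4 and 90.1 CPM in females against 69.0, 64.9 and 75.6 CPM in males. The groups were well apart, with a log2 difference of 0.46 (SE 0.070, adjusted p = 0.000138). At E14.5 Tcf7l1 libraries of the sexes had overlapped, at 83.9, 78.4 and 81.4 CPM in females and 72.4, 79.7 and 79.3 CPM in males.

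Nkd2, which binds Dishevelled and is itself induced by the pathway, went the other way. It lies at chr13:73818534-73847631 on the minus strand. Its E16.5 level was 62.3, 63.6 and 61.0 CPM in females against 88.7, 83.3 and 89.1 CPM in males. Every female library was below every male library, and the log2 difference was -0.48 (SE 0.065, adjusted p = 4.12e-05). All 18 alternatives called it. Its relative Nkd1 (chr8:88521354-88594884, plus strand) differed by -0.01 at the same age (SE 0.077, adjusted p = 0.945), at 148, 156 and 141 CPM in females and 150, 152 and 146 CPM in males.

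Tcf7 no longer differed by the test at E16.5, at 22.7, 27.4 and 22.2 CPM in females and 26.0, 27.1 and 26.6 CPM in males (log2 difference -0.14, adjusted p = 0.234). Without the E16.5 female replicate 2, the one Tcf7 library that overlapped the males, the adjusted p was 0.0282, lower in females (range over 18 alternatives 0.0282 to 0.549). Axin2 stood at 86.3, 97.7 and 85.3 CPM in females against 64.2, 78.9 and 85.1 CPM in males, and its log2 difference of 0.24 missed the threshold (adjusted p = 0.109). Tcf7l2, at 47.2, 47.8 and 46.1 CPM in females and 37.3, 40.8 and 45.6 CPM in males, had a log2 difference of 0.19 (adjusted p = 0.0802), which was called without E16.5 male replicate 3 (0.0246). Same-numbered E16.5 libraries deviated together, and with the replicate number as a block 6 of the 10 genes were called, with Axin2 at an adjusted p of 0.019 and Tcf7l2 at 0.0449. Ctnnb1, Axin1 and Nkd1 were not called with or without the block.

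Smooth muscle genes, which mark another mesenchymal derivative, moved with sex at both ages. The sum of Acta2, Myh11, Des and Cnn1 ran from 297 to 320 CPM for E14.5 females, from 596 to 879 CPM for E14.5 males, from 461 to 561 CPM for E16.5 females and from 1691 to 2842 CPM for E16.5 males. The sum of 4 cell-cycle genes was 860 to 1034 CPM in E16.5 females and 1055 to 1547 CPM in males. Epithelial markers summed to 29.8 to 33.9 CPM in E14.5 females, 44.7 to 52.5 CPM in E14.5 males, 22.2 to 31.9 CPM in E16.5 females and 32.0 to 40.3 CPM in E16.5 males, with Cdh1 at or below 0.869 CPM in each fetal library. At E14.5 Krt18 averaged 15.6 CPM in females and 24.7 CPM in males, whereas Epcam averaged 3.03 and 2.76 CPM and Cdh1 0.603 CPM in each sex. Gli1, the gene whose Cre marks the sorted cells, was lower in females by 0.31 at E14.5 (adjusted p = 0.0125) and by 2.04 at E16.5 (adjusted p = 3.53e-11). Amhr2 was higher in females by 1.87 (adjusted p = 6.82e-05) and 2.88 (adjusted p = 4.64e-07). Whether these markers bear on the sex differences of Lef1, Tcf7, Tcf7l1, Nkd2 and Apcdd1 was not tested.

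The second question was how the genes changed between E14.5 and E16.5 within each sex. In females 7 of the 10 genes fell and 1 rose, against 39.6% of all genes called in either direction, 21.0% higher and 18.6% lower. Lef1, Tcf7, Nkd1, Nkd2, Ctnnb1, Axin2 and Apcdd1 fell and Tcf7l1 rose. The median change was -0.37 on the log2 scale, against 0.005 over all genes. In males 4 of the 10 fell, Lef1, Tcf7, Axin2 and Nkd1, and none rose, against 23.3% of all genes called in either direction, 13.1% higher and 10.2% lower. The median in males was -0.19, against -0.012 over all genes. Libraries of the 2 ages did not overlap for 9 of the 10 genes in females and 5 in males, against 56.6% and 34.9% of all genes. The comparisons between sexes and between ages share their libraries and are not independent of each other.

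Lef1 and Tcf7 fell most. Lef1 stood between 19.8 and 20.9 CPM in E14.5 females and between 9.57 and 10.5 CPM at E16.5, a log2 fall of 1.02 (SE 0.117, adjusted p = 6.37e-06), or 2.03-fold. In males the log2 fall of Lef1 was 1.07 (SE 0.118, adjusted p = 6.79e-06). The level was thus roughly halved in both sexes, and the 2 falls did not differ by the interaction test (0.05, SE 0.165, adjusted p = 0.907).

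Tcf7 fell 2.71-fold in females, from a mean of 65.2 ± 2.87 to 24.1 ± 2.88 CPM (SD, n = 3), with a log2 change of -1.44 (SE 0.082, adjusted p = 3.67e-09). In males it fell 1.49-fold, from 39.6 ± 2.15 to 26.5 ± 0.550 CPM, with a log2 change of -0.58 (SE 0.081, adjusted p = 7.33e-05). Both sexes ended near the same level from different starting points. That the sex difference of Tcf7 changed with age was tested directly, and the interaction was -0.86 (SE 0.114, adjusted p = 0.000145). All 17 alternatives called it.

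The feedback genes Axin2 and Nkd1 fell by similar amounts in both sexes. Axin2 is at chr11:108920349-108950783 on the plus strand and shares 3.8% of its exonic bases with the antisense gene Gm11670. Its log2 fall was 0.38 in females (SE 0.105, adjusted p = 0.00986) and 0.43 in males (SE 0.105, adjusted p = 0.00782). The female call for Axin2 was lost without E14.5 female replicate 3, its highest library (adjusted p = 0.0558, range over 18 alternatives 0.00212 to 0.0558). The E14.5 libraries of Nkd1 stood at 230, 220 and 207 CPM for females and 183, 224 and 185 CPM for males, all above the 141 to 156 CPM of the E16.5 libraries. Its log2 fall was 0.56 in females (SE 0.077, adjusted p = 4e-05) and 0.40 in males (SE 0.077, adjusted p = 0.00125). Neither Axin2 nor Nkd1 passed the interaction test, at adjusted p of 0.896 and 0.413.

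Nkd2 changed with age in females and not by the test in males. Its log2 fall in females was 0.59 (SE 0.065, adjusted p = 4.81e-06), from 90.5, 98.4 and 92.1 CPM at E14.5 to the 61.0 to 63.6 CPM given above. The male libraries at E14.5, at 75.9, 87.1 and 77.4 CPM, overlapped those at E16.5, with a log2 change of 0.12 (SE 0.065, adjusted p = 0.209). The interaction for Nkd2 was -0.71 (SE 0.092, adjusted p = 0.000114), called under all 17 alternatives.

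Tcf7l1 rose in females by 0.24 on the log2 scale (SE 0.070, adjusted p = 0.0136). The Tcf7l1 call was lost without E14.5 or E16.5 female replicate 2, at adjusted p of 0.0622 and 0.0616 (range over 18 alternatives 0.00357 to 0.0622). In males its log2 change was -0.14 (adjusted p = 0.155). Library size alone as the scaling made the male change of Tcf7l1 a call, at an adjusted p of 0.0466 (range over 18 alternatives 0.0466 to 0.411). The interaction for Tcf7l1 was 0.38 (SE 0.099, adjusted p = 0.0202). It was lost without any 1 of E14.5 female replicate 2 (0.0649), E14.5 male replicate 2 (0.0526) or 3 (0.0588), E16.5 female replicate 1 (0.062) or 2 (0.0761), or E16.5 male replicate 2 (0.0552), within a range over 17 alternatives of 0.007 to 0.0761. Of the 10 genes 3 passed the interaction test, Tcf7, Nkd2 and Tcf7l1, against 10% of all genes, 4.66% above and 5.36% below 0.

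Apcdd1 fell by 0.29 in females (SE 0.089, adjusted p = 0.0184). This was lost without E14.5 female replicate 1 (0.0697) or 3 (0.0604), or without E16.5 female replicate 1 (0.0548) or 3 (0.0907), within a range over 18 alternatives of 0.00407 to 0.0907. In males the log2 change of Apcdd1 was -0.24 (adjusted p = 0.0627). It was called with scaling by library size only, at 0.0297, and without E16.5 female replicate 3, at 0.0302, within a range of 0.0297 to 0.24. Tcf7l2 (chr19:55741810-55933654, plus strand), the factor TCF4, changed by 0.15 and 0.07 and Axin1 (chr17:26138688-26195811, plus strand), the scaffold that is not itself a target, by -0.05 and -0.07, in females and males respectively. None of these 4 values passed, at adjusted p from 0.15 to 0.59.

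Marker sums of other populations also moved with age. The summed level of 5 endothelial genes was 101 to 123 CPM across the E14.5 groups and 64.3 to 91.6 CPM at E16.5. Single genes of that list differed. Cdh5 averaged 3.95 and 2.45 CPM at the earlier and later age in females, but 3.91 and 7.08 CPM in males. Pecam1 averaged 1.39 and 0.904 CPM in females, and 0.71 and 0.70 CPM in males. Cell-cycle genes summed to 1274 to 1465 CPM in E14.5 females and to 860 to 1034 CPM at E16.5, whereas the male ages overlapped, at 1244 to 1340 and 1055 to 1547 CPM. The 6 mesenchymal markers summed to 38950 to 41030 and 55230 to 64400 CPM at the earlier and later age in females, and to 33480 to 39100 and 45340 to 56750 CPM in males. Gli1 averaged 184 and 50.8 CPM at the earlier and later age in females, and 228 and 208 CPM in males. Amhr2 averaged 30.6 and 13.3 CPM in females, and 8.47 and 1.82 CPM in males. Their part in the falls of Lef1, Tcf7, Axin2, Nkd1, Nkd2 and Apcdd1 was not tested.

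**Figure D3:**
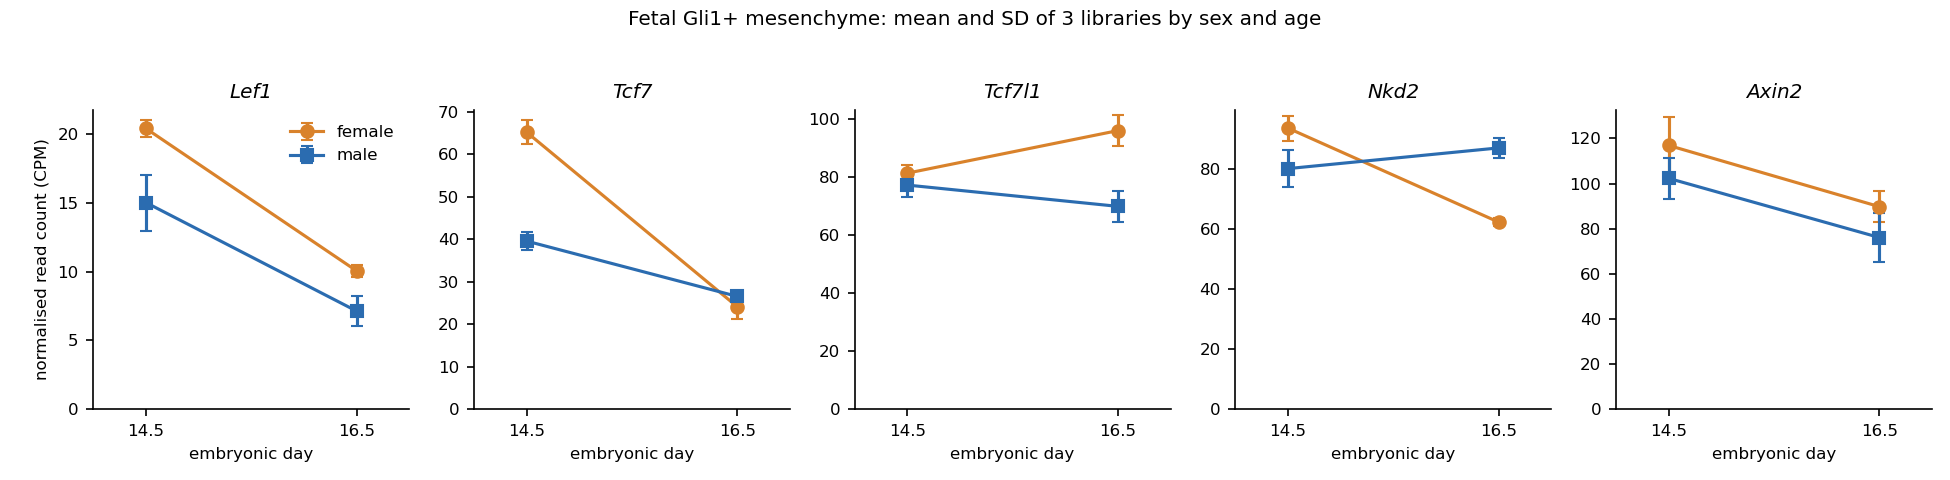
Mean normalised read count in CPM with SD of 3 libraries is plotted against embryonic day for females (circles) and males (squares). The lines run side by side for Lef1 and Axin2, meet at E16.5 for Tcf7, cross for Nkd2 and separate for Tcf7l1.

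Because the 4 TCF/LEF factors can occupy the same sites, their make-up was described in each library as shares of their summed CPM per kb, with no test. Lef1 and Tcf7 together made up 51.5% ± 1.44 (SD, n = 3) in E14.5 females and 41.0% ± 1.25 in E14.5 males. At E16.5 they made up 25.7% ± 1.42 in females and 32.7% ± 1.53 in males. Females therefore had the higher joint share at E14.5 and the lower at E16.5, with no overlap of libraries at either age. Most of the joint share was Tcf7. Lef1 alone made up 4.41% and 4.17% in E14.5 females and males, and 2.85% and 2.42% at E16.5, where females were thus higher. The share of Tcf7l1 was 39.3%, 48.0%, 60.9% and 53.2% in E14.5 females, E14.5 males, E16.5 females and E16.5 males. Shares of a fixed whole must move against each other, so these values do not show a change of Tcf7l1 itself. Its level averaged 81.2, 77.1, 95.9 and 69.8 CPM in the same order. In the uterus Lef1 and Tcf7 made up 43.7% ± 3.68 in Amhr2+ and 27.4% ± 3.71 in Gli1+ cells, and the libraries did not overlap. Without length scaling every share of Lef1 and Tcf7 was lower, from 19.3% in E16.5 females to 40.9% in E14.5 females, and the order of the 4 fetal groups and of the 2 uterine groups stayed as given.

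**Figure D4:**
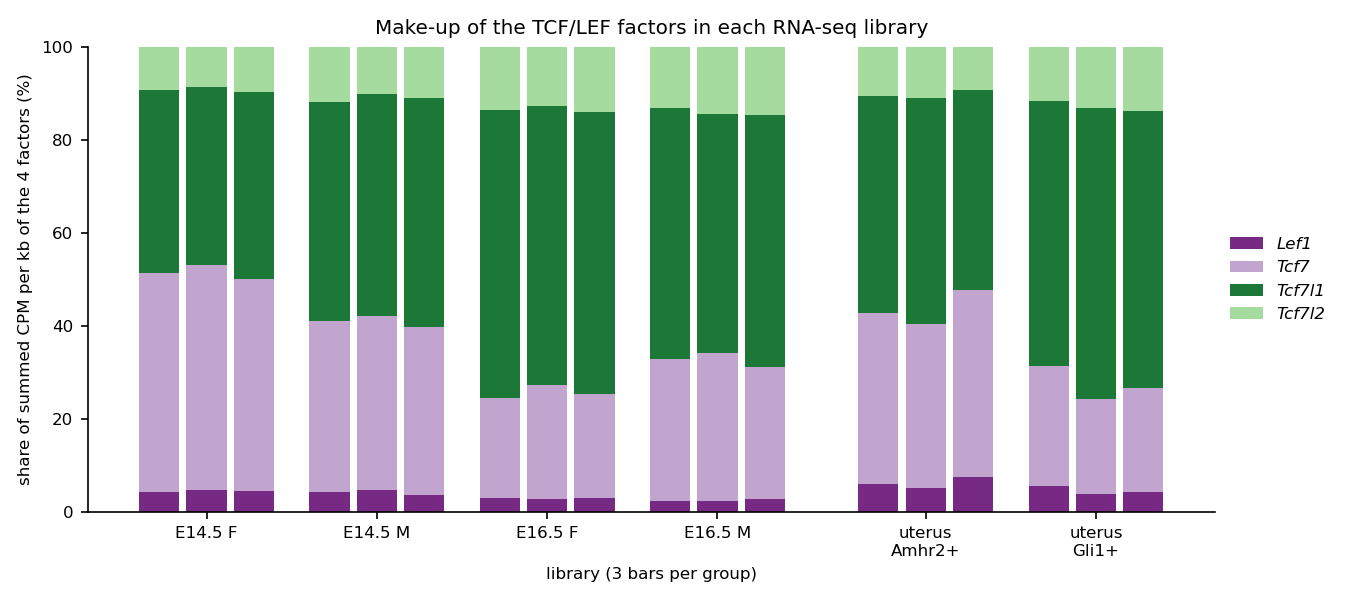
Each bar is 1 library and is split into the shares, in percent, of Lef1, Tcf7, Tcf7l1 and Tcf7l2 in their summed CPM per kb; F and M stand for female and male. The purple share of Lef1 and Tcf7 goes from 51.5% to 25.7% between the ages in females and from 41.0% to 32.7% in males.

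The third question was how Amhr2+ and Gli1+ cells of the neonatal uterus differ. In Amhr2+ cells 4 of the 10 genes were higher, Axin2, Nkd2, Tcf7 and Apcdd1, and 3 were lower, Tcf7l1, Tcf7l2 and Axin1, against 23.9% of 16195 genes called in either direction. Of all genes 10.1% were called higher and 13.7% lower. The median log2 difference of the 10 was 0.28, against -0.002 over all genes. Libraries of the populations did not overlap for 7 of the 10, 4 higher and 3 lower in Amhr2+ cells, against 44.4% of all genes, 21.2% higher and 23.2% lower.

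Axin2 measured 369, 381 and 358 CPM in Amhr2+ libraries and 240, 218 and 272 CPM in Gli1+ libraries. The groups were far apart, with a log2 difference of 0.60 (SE 0.083, adjusted p = 0.00157), or 1.52-fold. Nkd2 measured 201, 198 and 204 CPM in Amhr2+ and 129, 117 and 113 CPM in Gli1+ libraries. Its log2 difference was 0.75 (SE 0.065, adjusted p = 0.000157), the smallest adjusted p among the 10 genes in the uterus. Tcf7 measured 39.3, 35.3 and 46.5 CPM in Amhr2+ and 26.6, 21.3 and 23.6 CPM in Gli1+ libraries, a log2 difference of 0.76 (SE 0.120, adjusted p = 0.00296). All 11 alternatives called Axin2, Nkd2 and Tcf7.

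Apcdd1 was the most abundant feedback gene in CPM, at 710, 664 and 812 CPM in Amhr2+ and 601, 462 and 522 CPM in Gli1+ libraries. The log2 difference of 0.46 (SE 0.109, adjusted p = 0.0175) was lost without Amhr2+ replicate 1 (adjusted p = 0.0525, range over 11 alternatives 0.000683 to 0.0525). Lef1 measured 21.7, 17.3 and 29.2 CPM in Amhr2+ and 19.0, 13.1 and 14.7 CPM in Gli1+ libraries. The populations overlapped, and the log2 difference of 0.54 had a large error (SE 0.208, adjusted p = 0.0988). Without Amhr2+ replicate 2 the adjusted p for Lef1 was 0.0384, and DESeq2's Wald test gave 0.0312 (range over 11 alternatives 0.0312 to 0.241).

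The repressive factor Tcf7l1 was lower in Amhr2+ cells, at 74.4, 72.6 and 74.4 CPM against 87.4, 97.9 and 93.8 CPM (log2 difference -0.33, SE 0.062, adjusted p = 0.00629), and was called under all 11 alternatives. Tcf7l2 measured 37.9, 36.6 and 36.1 CPM in Amhr2+ and 39.8, 46.1 and 48.7 CPM in Gli1+ cells, a log2 difference of -0.28 (SE 0.085, adjusted p = 0.0416). Axin1 measured 63.6, 65.9 and 67.7 CPM in Amhr2+ and 81.6, 76.4 and 74.3 CPM in Gli1+ cells, a log2 difference of -0.24 (SE 0.063, adjusted p = 0.0274). The Gli1+ libraries were all higher for both genes, but neither call was firm. Scaling by library size alone lost Tcf7l2, at an adjusted p of 0.102, and Axin1, at 0.114. So did leaving out Amhr2+ replicate 1 (0.111 for Tcf7l2, 0.141 for Axin1) or 2 (0.108 and 0.0839). Tcf7l2 was also lost without Amhr2+ replicate 3 (0.0994) or Gli1+ replicate 2 (0.0821) or 3 (0.107), and Axin1 without Gli1+ replicate 1 (0.0887). The adjusted p ranged over 11 alternatives from 0.0192 to 0.111 for Tcf7l2 and from 0.0187 to 0.141 for Axin1.

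Nkd1 was level between the populations, at 189, 185 and 190 CPM in Amhr2+ and 197, 187 and 185 CPM in Gli1+ libraries (log2 difference -0.01, SE 0.055, adjusted p = 0.889). Ctnnb1, at 977, 947 and 1072 CPM against 952, 893 and 965 CPM, was not called either (log2 difference 0.09, SE 0.068, adjusted p = 0.354). Epithelial markers summed to 71.0 to 72.7 CPM in Amhr2+ and 30.9 to 42.6 CPM in Gli1+ libraries, with Cdh1 at 1.56 to 2.41 and 0.712 to 1.97 CPM. Endothelial genes summed to 23.8 to 29.6 CPM in Amhr2+ and 36.7 to 44.9 CPM in Gli1+ libraries. Smooth muscle genes summed to 853 to 1372 CPM and 1726 to 1799 CPM, the 6 mesenchymal markers to 26030 to 27850 CPM and 54260 to 61150 CPM, and cell-cycle genes to 994 to 1289 CPM and 724 to 929 CPM. Their part in the uterine differences of Axin2, Nkd2, Tcf7, Apcdd1, Tcf7l1, Tcf7l2 and Axin1 was not tested. The marking genes followed the labels in part: Amhr2 was at 7.25 to 15.8 CPM in Amhr2+ and 3.35 to 5.23 CPM in Gli1+ libraries, and Gli1 at 7.53 to 12.3 and 16.2 to 21.2 CPM.

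**Figure D5:**
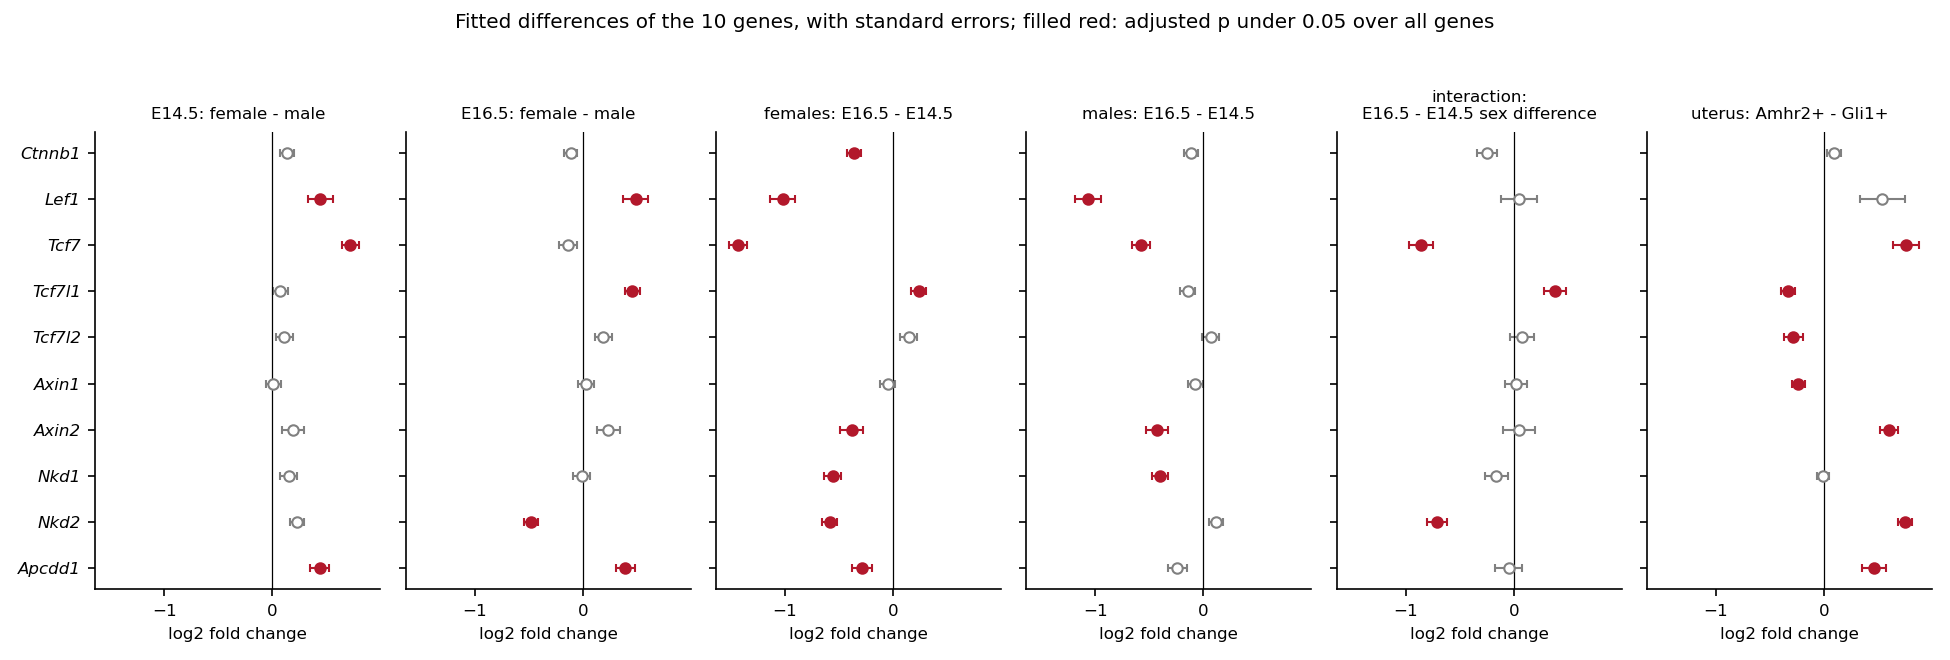
Log2 fold changes with standard errors are shown for the 10 genes in 6 comparisons; filled red points had an adjusted p under 0.05 over all genes and open grey points did not. In females the falls of Tcf7 (-1.44) and Lef1 (-1.02) with age stand out, and in the uterus Nkd2 (0.75), Tcf7 (0.76) and Axin2 (0.60) lie to the right and Tcf7l1 (-0.33) to the left.

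Other genes of the pathway were counted in 4 lists. The destruction complex and Dishevelled genes (13 tested) gave no call between the sexes at E14.5, in the interaction or in the uterus. Apc2, higher in females by 0.56 (adjusted p = 0.000292), was the 1 call between the sexes at E16.5, beside 27.3% of all genes. With age 3 of the 13 rose and 4 fell in females, beside 21.0% and 18.6% of all genes. Among them were Dvl1, a Dishevelled gene, up by 0.47 (adjusted p = 0.000394) and Fbxw11, which encodes a ubiquitin ligase subunit for beta-catenin, down by 0.36 (adjusted p = 0.00152). In males 1 rose and 2 fell, beside 13.1% and 10.2% of all genes. The median log2 change of the list was -0.05 in females and -0.11 in males.

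Of the nuclear cofactors (15 tested), which act with or against beta-catenin on DNA, 5 were higher and 3 lower in females at E16.5, beside 13.2% and 14.1% of all genes. The corepressor gene Tle4 averaged 25.5 ± 1.3 CPM (SD, n = 3) in females against 57.3 ± 8.93 CPM in males (log2 difference -1.17, SE 0.095, adjusted p = 1.91e-07). Its relative Tle3 measured 209 ± 12.1 and 131 ± 12.3 CPM, in the opposite direction (0.68, SE 0.081, adjusted p = 1.11e-05). The beta-catenin inhibitor gene Ctnnbip1 was lower in females by 0.39 (adjusted p = 0.00053), and the coactivator gene Bcl9l was higher by 0.36 (adjusted p = 0.000781). At E14.5 the list gave 1 call, beside 6.28% of all genes. This was Aes at -0.32 (adjusted p = 0.0193), which was lost without E14.5 female replicate 1 (0.106), 2 (0.0574) or 3 (0.0604) or male replicate 2 (0.091) or 3 (0.122), within a range over 18 alternatives of 0.000922 to 0.122.

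With age in females Tle3 rose by 0.65 and Bcl9l by 0.30, whereas Tle4 fell by 0.93 and Ctnnbip1 by 0.44. In all 3 of the list rose and 4 fell, beside 21.0% and 18.6% of all genes. In males none rose and 3 fell, beside 13.1% and 10.2%, among them Tle2 (-0.91, adjusted p = 0.00337). The interaction was called for Tle4 (-1.04, adjusted p = 9.5e-05) and Tle3 (0.71, adjusted p = 0.00072) under all 17 alternatives, and for Bcl9l (0.32, adjusted p = 0.0391) under 7 of them (range 0.0195 to 0.15). Of all genes 4.66% passed the interaction test above 0 and 5.36% below 0. Bcl9l was lost with the replicate block (0.0568) and with no low-count filter (0.0511), and also without E14.5 female replicate 1 (0.0969) or 2 (0.121), E14.5 male replicate 2 (0.0622) or 3 (0.109), E16.5 female replicate 1 (0.0934) or 2 (0.15), or E16.5 male replicate 2 (0.067) or 3 (0.058). In the uterus 1 of the list was higher in Amhr2+ cells and 3 were lower, beside 10.1% and 13.7% of all genes, among them Tle3 (-0.40, adjusted p = 0.00172) and Bcl9l (-0.36, adjusted p = 0.00307).

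Of 12 receptor genes, Fzd10 was higher in females at E14.5, at 15.2 ± 2.22 against 8.22 ± 1.05 CPM (0.89, adjusted p = 0.00301), and again at E16.5 (0.76, adjusted p = 0.00211). The list gave 2 higher and 1 lower at E14.5, beside 2.59% and 3.69% of all genes, and 3 higher and 1 lower at E16.5, beside 13.2% and 14.1%. With age 1 receptor gene rose and 5 fell in females, and 2 rose and 4 fell in males, with median log2 changes of -0.16 and -0.22. Of all genes 21.0% rose and 18.6% fell in females, and 13.1% rose and 10.2% fell in males. The coreceptor gene Lrp5 fell in both sexes, by 0.41 in females (adjusted p = 3.05e-05) and 0.32 in males (adjusted p = 0.000442). Fzd7 alone on the list passed the interaction test (-0.50, adjusted p = 0.0134). In the uterus 3 were lower in Amhr2+ cells and none higher, beside 13.7% and 10.1% of all genes, with Fzd7 at 67.8 ± 2.18 against 108 ± 0.412 CPM (-0.67, adjusted p = 0.000125) and Fzd4 at -1.12 (adjusted p = 0.00176).

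Further beta-catenin targets (13 tested in the fetal table) gave 6 falls and 3 rises with age in females, beside 18.6% and 21.0% of all genes. In males 6 fell and 1 rose, beside 10.2% and 13.1%. The median log2 changes were -0.53 and -0.42, beside 0.005 and -0.012 over all genes. Notum, which encodes a secreted enzyme that inactivates Wnt proteins, fell from 35.8 ± 1.18 to 7.28 ± 1.59 CPM in females (-2.30, adjusted p = 3.59e-09) and from 20.5 ± 2.42 to 8.88 ± 0.674 CPM in males (-1.21, adjusted p = 3.67e-06). The larger fall in females passed the interaction test (-1.08, SE 0.179, adjusted p = 0.000887), the same sign as for Tcf7. Tnfrsf19, a receptor gene of the TNF family, fell by 0.62 in females (adjusted p = 1.29e-05) and 0.87 in males (adjusted p = 5.89e-07). Cd44, an adhesion receptor gene, rose by 1.15 (adjusted p = 8.18e-06) and 1.43 (adjusted p = 8.12e-07).

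The ubiquitin ligase genes Rnf43 and Znrf3, whose products remove Frizzled from the membrane, were chosen after their values were seen. In females Rnf43 fell by 0.64 (adjusted p = 0.00562) and Znrf3 by 0.53 (adjusted p = 0.000513). In males Znrf3 fell by 0.42 (adjusted p = 0.00407) and Rnf43, which stood at only 3.03 to 4.32 CPM on average, by 0.51 (adjusted p = 0.0283). The male Rnf43 call was lost with no low-count filter (0.0506), in a fit of the 6 male libraries alone (0.0863) and without E14.5 male replicate 1 (0.0558) or 2 (0.143) or E16.5 male replicate 3 (0.114), within a range of 0.0153 to 0.143. Neither gene was called between the sexes at E14.5 (0.13 for Rnf43 and 0.18 for Znrf3), at E16.5 (-0.003 and 0.08) or in the interaction (-0.13 and -0.10), at adjusted p from 0.341 to 0.993. In the uterus Rnf43 was higher in Amhr2+ cells by 0.86 (adjusted p = 0.00974), a call lost without Amhr2+ replicate 1 (0.055, range over 11 alternatives 0.000599 to 0.055), and Znrf3 differed by 0.11 (adjusted p = 0.302).

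Between the sexes the target list gave 2 higher and 2 lower in females at E14.5, beside 2.59% and 3.69% of all genes, with Notum (0.80, adjusted p = 0.00088) and Tnfrsf19 (0.47, adjusted p = 0.00147) higher. The 2 lower were Wif1 (-2.45, adjusted p = 0.00079), at 0.369 against 2.07 CPM, and Dkk1 (-1.89, adjusted p = 0.02), at 0.182 against 0.667 CPM. Wif1 was called under all 18 alternatives and Dkk1 under 13 of 18 (range 0.0133 to 0.122). At E16.5 it gave 3 higher and 2 lower, beside 13.2% and 14.1%. At the later age Tnfrsf19 measured 74.0 ± 5.25 against 45.0 ± 0.844 CPM (0.72, adjusted p = 3.44e-06), and Ccnd1, the cyclin D1 gene, 74.7 ± 2.04 against 107 ± 4.36 CPM (-0.52, adjusted p = 4.21e-06). In the uterus Sp5, Wif1 and Dkk1 were too low to test, and of the other 10 target genes 5 were higher and 3 lower in Amhr2+ cells, beside 10.1% and 13.7% of all genes. Tnfrsf19 measured 134 ± 5.14 against 62.6 ± 4.35 CPM (1.10, adjusted p = 3.05e-05). Cd44 measured 6.15 ± 0.399 against 23.0 ± 1.46 CPM (-1.90, adjusted p = 1.42e-05), and Bambi, which encodes a decoy receptor of the TGF-beta family, 26.8 ± 1.77 against 60.2 ± 5.03 CPM (-1.17, adjusted p = 6.18e-05). Lgr5, the R-spondin receptor gene, was higher by 1.95 (adjusted p = 0.00399) but stood at only 1.31 and 0.332 CPM.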

How the data were processed

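RNA-seq and ATAC-seq of sorted reproductive tract mesenchyme were analysed from tables deposited by the authors. The deposited RNA-seq values are raw read counts per gene. Per the labels' protocols, fetal libraries came from a non-stranded and uterine libraries from a stranded kit, and the use of strand in counting is not given in the sources used here, so Ctnnb1, Lef1, Tcf7l1 and Axin2, whose exons overlap other genes, are uncertain to that extent. The submitters' processing notes name STAR 2.5, featureCounts, Subread 1.5.0-p1, Bowtie 1.2, MACS2 2.1.1 and mm10 without roles. The deposited ATAC-seq file holds peak positions only. Gene positions are on mm10, per the file headers, and exon lengths and overlaps come from GENCODE vM21.

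Each table was fitted by itself with edgeR 4.0.16 (R 4.3.3), quasi-likelihood F-test: TMM, filterByExpr by group, robust estimation, Benjamini-Hochberg adjustment over all genes tested, threshold 0.05. The 12 fetal libraries shared 1 model of 4 group means. SE is the log2 fold change divided by the root of F. The test was checked on simulated counts. Alternatives were library-size scaling, DESeq2 size factors, no filter, DESeq2 1.42.0, a fit of the 6 libraries compared, the replicate block and leaving out each library. Replicates of a group differed beyond counting noise (chi-square per gene of 4.12 or more), so none was merged. At E16.5 same-numbered female and male libraries had correlated deviations (0.284, 0.115 and 0.396), which the values and not the labels show; blocked values are printed where they change a call given for a named gene.

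The members and lists were chosen with earlier results of these data known. All 10 members are named; of each list up to 4 genes with the smallest adjusted p under 0.05 in a comparison could be named, and Rnf43 and Znrf3 were added after their values were seen.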

Additional observations from a re-analysis of the deposited data

Results flagged for a closer look

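The sex difference of several genes changed between E14.5 and E16.5 by edgeR's interaction test over all 17858 genes, where a negative value means that females lost ground to males with age. Among the 10 genes these were Tcf7 (-0.859, adjusted p = 0.000145), Nkd2 (-0.707, adjusted p = 0.000114) and Tcf7l1 (0.383, adjusted p = 0.0202). Tcf7 was called higher in females at E14.5 and not called at E16.5, whereas Nkd2 was not called at E14.5 and was called higher in males at E16.5.

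Among the other pathway genes named, Tle4 (-1.04, adjusted p = 9.5e-05), Notum (-1.08, adjusted p = 0.000887), Tle3 (0.707, adjusted p = 0.00072), Fzd7 (-0.497, adjusted p = 0.0134) and Ccnd1 (-0.330, adjusted p = 0.014) differed in the same test. Ccnd1 was lost without E14.5 female replicate 2 (adjusted p = 0.0568, range over 17 alternatives 0.000828 to 0.0568). Bcl9l (0.321, adjusted p = 0.0391) and Wif1 (2.02, adjusted p = 0.0475) were called in 7 of 17 alternatives each. Wif1 averaged 2.07 CPM or less in each fetal group and was lost without any 1 library of either E14.5 group, without E16.5 female replicate 1 or 3 or without E16.5 male replicate 2 or 3 (range over alternatives 0.00472 to 0.197).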

How the results depend on the processing

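For the 10 genes, 954 of 1000 values under alternatives kept their side of the threshold, 29 lost the call and 17 gained it. No called value reversed, but uncalled values near 0 could change sign, such as the interaction for Lef1 (-0.07 to 0.17) or the uterine difference of Nkd1 (-0.03 to 0.07). Leaving out 1 library at a time gave 553 to 1678 called genes and 2 to 4 of the 10 for sex at E14.5, 3618 to 5745 and 4 to 5 for sex at E16.5, 5249 to 7729 and 6 to 8 for age in females, 3364 to 4238 and 4 to 5 for age in males, 1335 to 2687 and 2 to 4 for the interaction, and 1949 to 3521 and 4 to 6 in the uterus. The count of 1121 at E14.5 fell to 578, 660 and 653 without female replicates 1, 2 and 3 and to 686 and 553 without male replicates 2 and 3. The interaction count of 1790 rose to 2687 without E16.5 male replicate 1. The uterine count of 3866 fell to 1949 without Amhr2+ replicate 1, with 4 of the 10 genes left, and to 2521 without Gli1+ replicate 1. The joint share of Lef1 and Tcf7 ranged, in the same order of groups as in the report, over 50.8% to 52.2%, 40.4% to 41.6%, 24.9% to 26.3%, 32.0% to 33.5%, 41.7% to 45.3% and 25.3% to 29.0%. Without length scaling it was 40.9%, 31.9%, 19.3%, 23.3%, 36.1% and 22.3%. Scaling by library size alone moved the split of all called genes in the uterus from 1642 higher and 2224 lower to 2849 and 1640, and that of the 10 genes from 4 and 3 to 4 and 1. In males with age the split moved from 2340 up and 1828 down to 1847 and 2641, and the 10 genes from 4 to 6 down. With the replicate block the called genes numbered 1581 for sex at E14.5, 5901 for sex at E16.5, 6255 and 3463 for age in females and males, 1816 for the interaction and 4725 in the uterus, with 4, 6, 8, 4, 3 and 8 of the 10 genes. In the uterus same-numbered libraries correlated by 0.00176, 0.221 and 0.243, and differently numbered ones by -0.245 to 0.128. Between the sexes at E14.5 same-numbered libraries correlated by 0.0725, 0.0504 and 0.0508, and differently numbered ones by -0.0434 to -0.00731. Whether equal numbers mean a shared origin was not tested, and the labels do not say. In the uterus the block added Lef1 (adjusted p = 0.0422), and at E14.5 it added Nkd2 (adjusted p = 0.025). Depth did not keep any of the 10 genes from being tested; Lef1, the lowest, had at least 238 counts in each library.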

Other observations

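Genes whose log2 CPM, centred on each gene's mean, followed Axin2 or Lef1 most closely were listed by the root mean square of the difference over libraries, among genes averaging at least 1 CPM. The values describe these libraries and carry no test. Over the 12 fetal libraries the genes nearest to Axin2 of 14085 compared were Pom121 (0.10), Mex3a (0.11), Atf7ip (0.11), Kctd1 (0.11) and Fam208b (0.12). The other feedback genes were further from Axin2, with Nkd1 ranked 631 (0.19), Apcdd1 ranked 753 (0.20) and Nkd2 ranked 6084 (0.31). The genes nearest to Lef1 were Cecr2 (0.13), Fhod3 (0.14), AC122789.1 (0.16), Guca1b (0.17) and Dusp4 (0.17), and Tcf7 ranked 71 (0.27).

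Over the 6 uterine libraries the genes nearest to Axin2 of 13844 were Stk10 (0.06), Slc5a3 (0.06), Ube2t (0.06), Ppp2r5a (0.06) and Atp1b3 (0.06), with Nkd2 ranked 352 (0.15). Nearest to Lef1 were Lama1 (0.05), Celsr1 (0.05), RP23-466M3.1 (0.07), Ppm1j (0.09) and RP24-306C18.9 (0.09), with Apcdd1 ranked 44 (0.15) and Tcf7 ranked 100 (0.17).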
